A study of Mus musculus with 6 samples.

Results

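Gimap genes encode GTPases of the immunity-associated protein family, small guanine nucleotide-binding proteins that share the AIG1 domain and are made chiefly in lymphocytes of the T, B and NK lineages. They lie side by side in the mammalian genome. Several members sit on intracellular membranes (lysosomes, mitochondria, the endoplasmic reticulum and the Golgi apparatus), and loss of some of them shortens the life of resting lymphocytes. Mice that lack a working Gimap5, for example, lose T cells and NK cells and develop liver disease.

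The 8 genes described here, Gimap1, Gimap3, Gimap4, Gimap5, Gimap6, Gimap7, Gimap8 and Gimap9, were taken by symbol from the 57180 genes of the deposited table. No other gene with a Gimap number was in the table except the antisense gene Gimap1os. RNA came from liver cells sorted as NK cells (CD3- NK1.1+ in the study's gate), in a CD36+ NK fraction and a CD36- NK fraction. Markers of other cells were also found in both fractions and are given below. CD36 is a receptor that takes up fatty acids. The donors of both fractions were wild-type male C57BL/6J mice of 6 to 8 weeks in which fibrosis had been induced by CCl4, injected intraperitoneally at 2.5 ml/kg of a 20% solution in olive oil, 2 times a week for 4 weeks, with harvest 48 h after the last injection. Every library thus came from a fibrotic liver, and no uninjected animal entered the comparison. Each group had 3 libraries, called biological triplicates by the submitters, and the comparison asks how the transcripts of cells sorted as NK differ with CD36.

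The libraries held 10292480 to 13787189 counts. Of the 57180 genes, 14761 had enough counts to be tested by edgeR's quasi-likelihood test, and all 8 Gimap genes were among them. CPM below is the count per 1000000 counts of the library after TMM scaling, and it serves to compare libraries within a gene. A gene is said to have passed when its p-value, adjusted over all 14761 genes, was below 0.05, and it is called a DEG when its fold change was above 2 as well. Cd36, the sorted marker, stood at 110, 263 and 238 CPM in CD36+ NK replicates 1 to 3 and at 14.3, 31.7 and 17.1 CPM in CD36- NK replicates 1 to 3 (log2 fold change 3.27, SE 0.426, adjusted p = 0.00615 in edgeR, where SE is the standard error). The names of the sequencing libraries use the sign of CD36 differently from the sample titles, and the titles, which this difference follows, were used.

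All 8 Gimap genes were lower in CD36+ NK than in CD36- NK, and all 8 passed the test. Their levels were 1.44 to 2.15 times lower, with a median log2 fold change of -0.87 against 0.01 over all tested genes. Of all tested genes, 5.44% passed with a lower level in CD36+ NK. Gimap4 and Gimap9 were DEGs, where 2.98% of all tested genes were DEGs lower in CD36+ NK. No CD36+ NK library reached the lowest CD36- NK library in any of the 8, as in 15.7% of all tested genes. The 8 genes are neighbours that moved together across the libraries, so they are not 8 independent measurements. A lower value in bulk RNA can come from fewer cells of a type or from less RNA per cell, which cannot be told apart here.

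**Figure D1:**
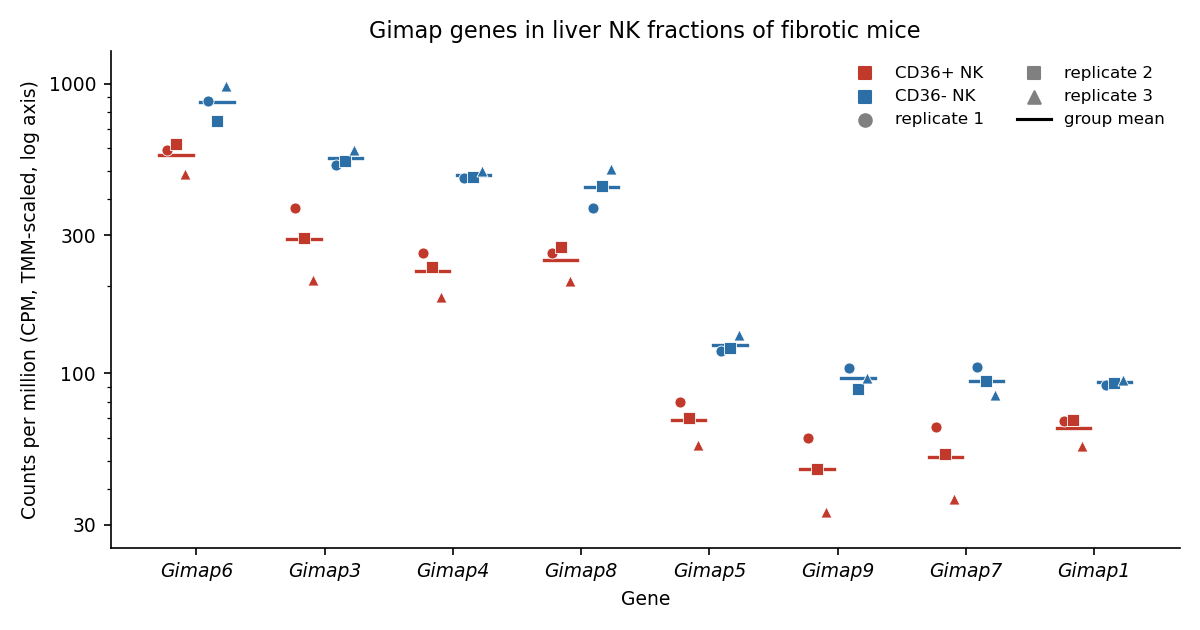
Level of the 8 Gimap genes in each library. The vertical log axis is the CPM after TMM scaling, the horizontal axis lists the genes by level in CD36- NK, colours are the groups, shapes are the replicates and lines are group means (n = 3). In each gene the 3 CD36+ NK points lie under the 3 CD36- NK points, and CD36+ NK replicate 3 is the lowest point.

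Gimap5, Gimap3 and Gimap1 are the members best known for keeping lymphocytes alive. Gimap5, a lysosomal membrane protein needed for the survival of T cells, was at 79.8, 70.4 and 56.5 CPM in CD36+ NK and at 120, 122 and 135 CPM in CD36- NK. The highest CD36+ NK library thus stayed well below the lowest CD36- NK library, and the gene fell (log2 fold change -0.87, SE 0.137, adjusted p = 0.0112 in edgeR). Gimap3, a close relative of Gimap5 found on mitochondria and the endoplasmic reticulum in mice, was at 371, 292 and 210 CPM in CD36+ NK and at 525, 540 and 592 CPM in CD36- NK. Its CD36+ NK libraries were the most spread of the highly expressed members, with replicate 1 nearest to the CD36- NK libraries (log2 fold change -0.92, SE 0.199, adjusted p = 0.0312 in edgeR). Gimap1, a Golgi protein needed by mature T and B cells, was at 68.5, 69.2 and 56.2 CPM in CD36+ NK and at 91.5, 92.9 and 95.1 CPM in CD36- NK. The CD36- NK libraries were nearly level for this gene, and its decrease was the smallest of the 8 (log2 fold change -0.53, SE 0.104, adjusted p = 0.0234 in edgeR).

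Gimap4, which has been linked to apoptosis of T cells rather than to their survival, showed the largest decrease. It was at 260, 233 and 184 CPM in CD36+ NK and at 475, 477 and 501 CPM in CD36- NK, with tight CD36- NK libraries and no overlap (log2 fold change -1.10, SE 0.136, adjusted p = 0.00516 in edgeR). Gimap6, a partner of the autophagy protein Gabarapl2, was at 592, 619 and 487 CPM in CD36+ NK and at 870, 741 and 980 CPM in CD36- NK. The gap between the groups was narrow, from 619 to 741 CPM, and the gene fell by less than most members (log2 fold change -0.61, SE 0.142, adjusted p = 0.0390 in edgeR). Gimap7, which stimulates the GTPase activity of other family members, was at 65.2, 52.6 and 37.0 CPM in CD36+ NK and at 105, 94.3 and 84.3 CPM in CD36- NK (log2 fold change -0.87, SE 0.202, adjusted p = 0.0386 in edgeR).

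Gimap8 is the longest protein of the family and carries several GTPase domains in tandem. It was at 260, 272 and 209 CPM in CD36+ NK and at 371, 444 and 509 CPM in CD36- NK, where the libraries were more spread than in Gimap4 at a like level (log2 fold change -0.84, SE 0.153, adjusted p = 0.0189 in edgeR). Gimap9, whose role is less known, was at 59.9, 46.9 and 33.2 CPM in CD36+ NK and at 104, 88.4 and 96.1 CPM in CD36- NK (log2 fold change -1.04, SE 0.204, adjusted p = 0.0231 in edgeR). Both genes fell, Gimap9 by more than 2 times.

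Among the CD36+ NK libraries, replicate 3 was the lowest in all 8 genes. Replicate 1 was the highest CD36+ NK library in 5 genes (Gimap3, Gimap4, Gimap5, Gimap7 and Gimap9) and replicate 2 in the other 3 (Gimap1, Gimap6 and Gimap8). Among the CD36- NK libraries replicate 3 was the highest in 6 genes and replicate 1 in Gimap7 and Gimap9. The summed CPM of the 8 genes was 1756, 1656 and 1273 in CD36+ NK and 2660, 2600 and 2993 in CD36- NK. The size of the difference leaned on CD36+ NK replicate 3, and without it the median log2 fold change of the 8 genes was -0.73, with 4 genes past the test and no DEG. The number of genes past the test fell also without CD36+ NK replicate 2 (only Gimap4), CD36- NK replicate 1 (3 genes), CD36- NK replicate 2 (5 genes) and CD36- NK replicate 3 (2 genes), while the median log2 fold change stayed between -0.93 and -0.85 in these fits. Gimap4 passed in each of these fits.

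**Figure D2:**
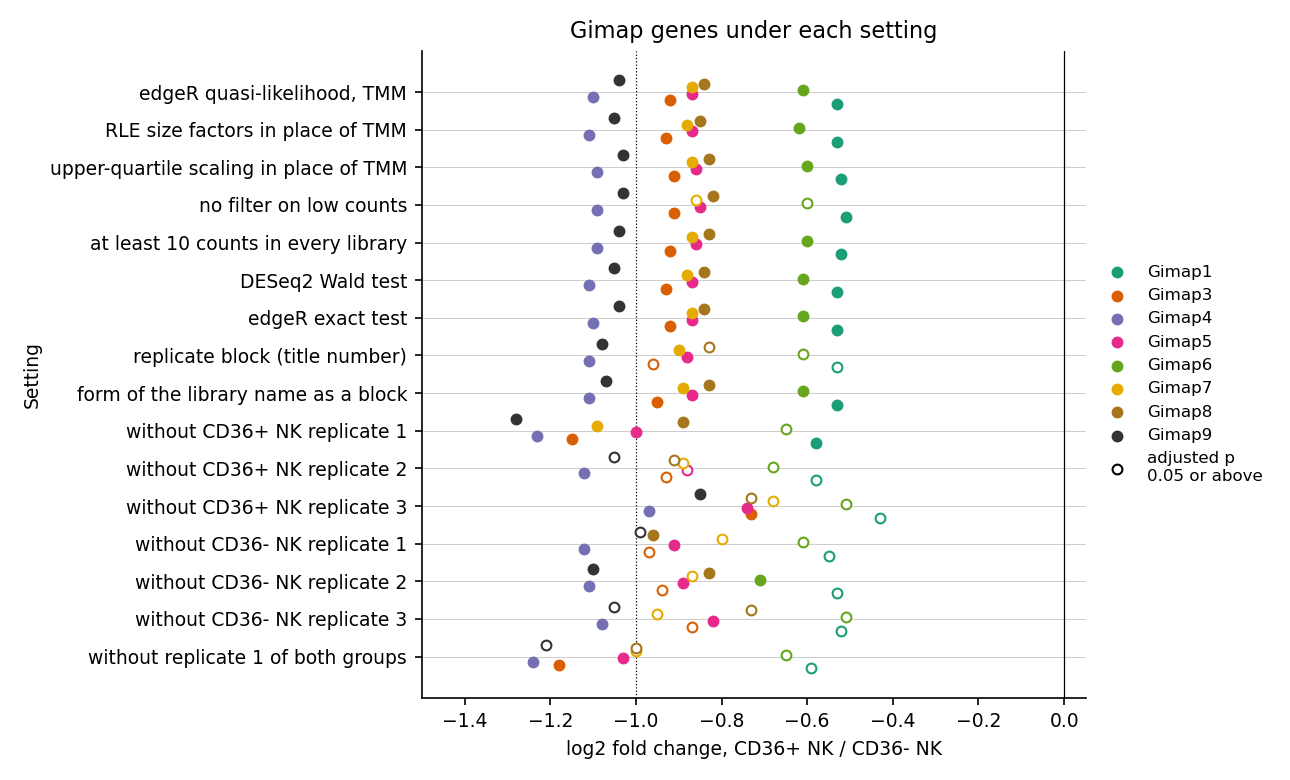
Log2 fold change of the 8 Gimap genes under each setting of the analysis. The horizontal axis is the log2 fold change between CD36+ NK and CD36- NK, each row is a setting, colours are genes, and open points have an adjusted p of 0.05 or above. All points lie left of 0, and Gimap4 is filled in every row.

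The genes form a cluster on chromosome 6, where they run in the order Gimap8, Gimap9, Gimap4, Gimap6, Gimap7, Gimap1, Gimap5 and Gimap3. In the coordinates of the deposited table the cluster spans chr6:48624168-48747785, or 123.6 kb. Gimap6 and Gimap3 are on the minus strand and the other 6 genes on the plus strand. The table names no genome build, and none of the 8 genes has the same coordinates in the GRCm38 annotation (GENCODE M21), so the table's own positions are given. By them Gimap8 lies at chr6:48624168-48637809, Gimap9 at chr6:48653063-48656048, Gimap4 at chr6:48661483-48668994 and Gimap6 at chr6:48678516-48685159. Gimap7 follows at chr6:48695555-48701570, Gimap1 at chr6:48715988-48720729, Gimap5 at chr6:48723131-48731144 and Gimap3 at chr6:48741398-48747785.

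Since the 8 genes moved together, the sequence around their starts is shown for 4 of them, the 2 DEGs (Gimap4 and Gimap9) and the 2 genes with the smallest decrease (Gimap6 and Gimap1). Each line holds 250 bases before and 50 bases from the start of the RefSeq transcript, in the direction of the gene, from the GRCm38.p6 assembly. Capitals mark the letters GGAAGT, the core of many ETS factor sites, and TGTGGT, the core of RUNX sites, on either strand (ACTTCC and ACCACA on the other strand). The windows are chr6:48684328-48684627 on the plus strand for Gimap4, chr6:48675885-48676184 on the plus strand for Gimap9, chr6:48708195-48708494 on the minus strand for Gimap6 and chr6:48738797-48739096 on the plus strand for Gimap1.
Gimap4: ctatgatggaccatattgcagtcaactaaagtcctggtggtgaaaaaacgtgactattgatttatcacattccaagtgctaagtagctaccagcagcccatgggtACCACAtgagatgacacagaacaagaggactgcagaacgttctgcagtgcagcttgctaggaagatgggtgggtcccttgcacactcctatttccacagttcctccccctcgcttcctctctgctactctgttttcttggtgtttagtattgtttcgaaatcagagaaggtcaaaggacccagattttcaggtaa
Gimap9: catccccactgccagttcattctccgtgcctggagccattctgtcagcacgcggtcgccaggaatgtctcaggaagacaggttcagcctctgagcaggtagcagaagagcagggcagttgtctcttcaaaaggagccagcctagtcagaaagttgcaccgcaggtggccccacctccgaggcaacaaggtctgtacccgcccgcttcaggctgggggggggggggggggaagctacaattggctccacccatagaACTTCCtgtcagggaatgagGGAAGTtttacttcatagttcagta
Gimap6: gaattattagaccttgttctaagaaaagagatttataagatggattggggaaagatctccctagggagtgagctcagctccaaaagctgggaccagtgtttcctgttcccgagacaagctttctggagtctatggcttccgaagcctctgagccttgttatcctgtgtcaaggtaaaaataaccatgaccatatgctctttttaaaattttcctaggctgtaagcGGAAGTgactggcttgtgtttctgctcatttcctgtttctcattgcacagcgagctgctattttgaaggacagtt
Gimap1: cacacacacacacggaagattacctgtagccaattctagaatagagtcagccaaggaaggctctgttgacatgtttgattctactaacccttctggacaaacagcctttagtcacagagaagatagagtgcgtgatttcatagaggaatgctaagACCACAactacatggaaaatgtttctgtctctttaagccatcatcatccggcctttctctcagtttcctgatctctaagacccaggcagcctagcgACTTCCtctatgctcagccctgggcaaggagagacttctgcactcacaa

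RefSeq windows of 300 bases were found for all 8 genes, and the first window was used where a gene had several. GGAAGT occurred in 4 of the 8 (Gimap1, Gimap5, Gimap6 and Gimap9) and in 23.8% of the 32851 windows of all mouse genes. In Gimap6 the match begins 25 bases before the start. In Gimap1 the match begins at base 2 of the transcript, and Gimap9 has matches at bases 6 and 26. TGTGGT occurred in 3 of the 8 (Gimap1, Gimap4 and Gimap7) and in 16.8% of all windows, beginning 145 bases before the start in Gimap4 and 95 bases before it in Gimap1. No printed match overlapped another. Gimap8 held neither motif, and Gimap3 held neither. Of the other motifs searched on both strands, the forkhead letters GTAAACA occurred in Gimap3 and in 3.65% of all windows, and the RBPJ letters TGGGAA in Gimap3 and in 25.6%. The GC box GGGCGG occurred in Gimap7 and Gimap9 and in 35.7% of all windows, TATAAA in Gimap6 and in 13.6%, and the T-box letters AGGTGTGA in none of the 8 and in 1.28%. The windows of the 8 genes held 2 to 8 CpG dinucleotides with a median of 4, where the median of all windows was 7. The matches are descriptions of letters. They do not show binding, and the share of members with a match was not tested.

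Genes within 250 kb on either side of the cluster were examined beside it. The table holds 42 of them, and 15 had enough counts to be tested, 12 outside the cluster and 3 inside it. None of the 12 outside passed in edgeR's quasi-likelihood test, in its exact test or in DESeq2. Of all tested genes, 5.44% passed with a lower and 5.07% with a higher level in the quasi-likelihood test. With 12 genes, several of them at low counts, none passing is near these shares and does not show that the decrease stops at the cluster. Zfp775, 1 of the 12, had an unadjusted p below 0.05 in the quasi-likelihood test. The log2 fold changes of the 12 ran from -0.96 to 0.59. Zfp775, a zinc-finger gene 24 kb before Gimap8, was at 5.34, 8.39 and 4.91 CPM in CD36+ NK and at 9.99, 9.02 and 8.69 CPM in CD36- NK (log2 fold change -0.57, edgeR adjusted p = 0.183). Tmem176b and Tmem176a, membrane proteins on the other side of the cluster, had log2 fold changes of -0.28 (edgeR adjusted p = 0.538) and -0.25 (edgeR adjusted p = 0.595). Further away, Krba1, Zfp467, Sspo, Gm10243 and Gm7887 had log2 fold changes of -0.04, 0.13, 0.22, 0.22 and 0.17, and the 2 genes named Zfp862-ps had -0.27 and -0.96. Lrrc61 and Repin1 had 0.59 and -0.65 with standard errors of 0.749 and 0.707, so that little can be read from them.

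Of the 3 other genes inside the cluster, Gimap1os and 4833403J16Rik were DEGs lower in CD36+ NK, as were 2.98% of all tested genes. Gimap1os, an antisense transcript that overlaps Gimap1, was at 10.2, 9.64 and 8.06 CPM in CD36+ NK and at 22.8, 26.3 and 23.8 CPM in CD36- NK. Its fold change was further from 0 than that of any Gimap gene, a difference that was not tested (log2 fold change -1.39, SE 0.140, adjusted p = 0.00255 in edgeR). 4833403J16Rik, an uncharacterized gene between Gimap5 and Gimap3, was at 6.85, 7.06 and 6.49 CPM in CD36+ NK and at 13.4, 14.8 and 13.9 CPM in CD36- NK (log2 fold change -1.04, SE 0.137, adjusted p = 0.00631 in edgeR). Gm28053, a gene model that spans Gimap7 to Gimap5, had few counts and did not pass (log2 fold change -0.37, edgeR adjusted p = 0.526).

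**Figure D3:**
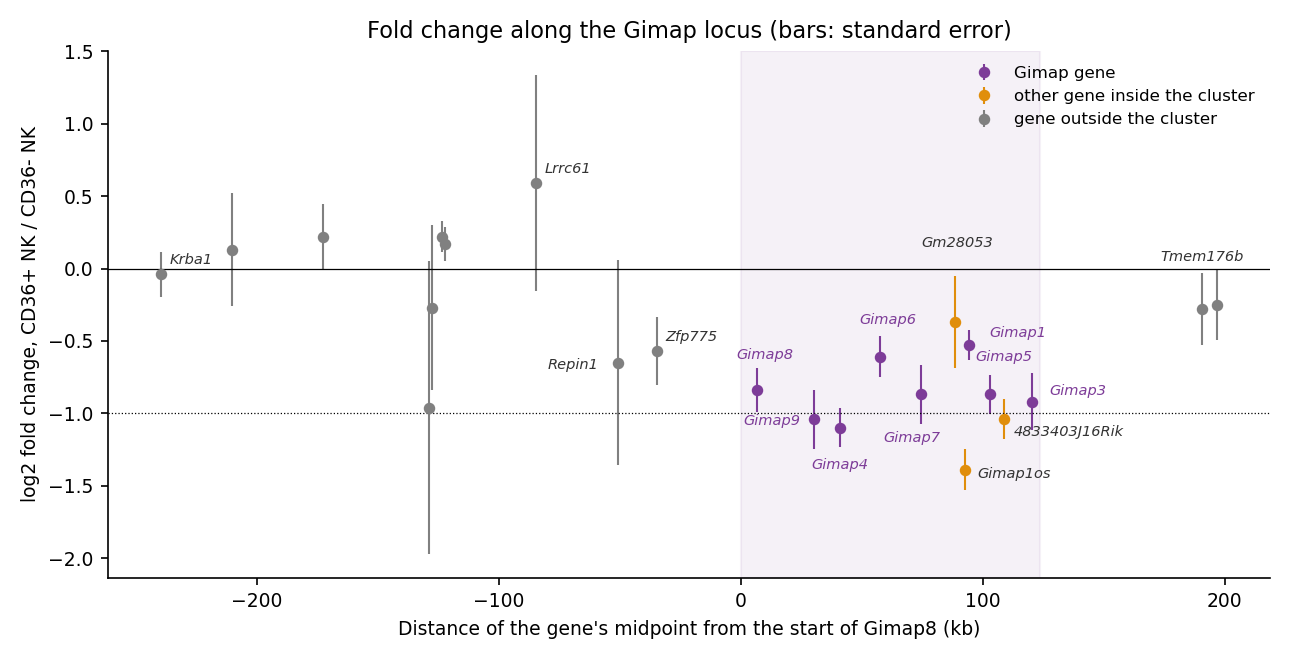
Fold change along the Gimap locus. The horizontal axis is the distance in kb of each gene's midpoint from the start of Gimap8, the vertical axis the log2 fold change between CD36+ NK and CD36- NK with its standard error, and the shaded band the cluster. The 8 Gimap genes lie between -1.10 and -0.53, Gimap1os at -1.39, and the genes outside the cluster on both sides of 0, with wide bars in those of low count.

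Reads can be shared between these genes. In the GRCm38 transcripts of GENCODE M21, 7.52% of the 50-base stretches of Gimap3 occur also in another member and 4.53% of those of Gimap5, the only members that share any, and at 100 bases the shares were 1.65% and 0.97%. Gimap1 shares 32.5% of its 50-base stretches with the opposite strand of Gimap1os. Whether the counting used strand is not given in the sources used here, so the values of Gimap1 and Gimap1os are uncertain. Gm28053 holds 4.78% of the 50-base stretches of Gimap1, 2.5% of those of Gimap5 and 1.39% of those of Gimap7. Gimap4, Gimap8 and Gimap9 shared no 50-base stretch with another gene.

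Levels between the genes were compared by the FPKM values that the authors deposited, which divide the counts by a length fixed per gene. The length so implied for Gimap1, 6575 bases, exceeds the span of the gene, chr6:48715988-48720729, and is thus no transcript length. For Gimap4 and Gimap8 the implied lengths were 6062 and 6848 bases. The order and percentiles given here depend on these lengths. In CD36- NK Gimap6 was the highest, at 161 ± 19.6 FPKM (SD, n = 3), followed by Gimap3 at 136 ± 7.18, Gimap4 at 80.8 ± 1.57 and Gimap8 at 65.2 ± 9.65 FPKM. Gimap9 at 47.5 ± 3.54, Gimap7 at 35.5 ± 4.14, Gimap5 at 23.7 ± 1.31 and Gimap1 at 14.3 ± 0.254 FPKM came next. Among these neighbours only the libraries of Gimap6 and Gimap3 overlapped. In CD36+ NK the same order was found, with Gimap6 at 103 ± 14.8, Gimap3 at 70.0 ± 21.3, Gimap4 at 36.8 ± 7.23, Gimap8 at 35.6 ± 5.58, Gimap9 at 22.6 ± 7.05, Gimap7 at 18.9 ± 5.68, Gimap5 at 12.7 ± 2.497 and Gimap1 at 9.70 ± 1.32 FPKM. There only Gimap3 and Gimap4 did not overlap as neighbours. Within each library the order was the same, except that Gimap8 was above Gimap4 in CD36+ NK replicates 2 and 3. Averaged over the 6 libraries, Gimap6 was at the 97.7th percentile of FPKM among the tested genes and Gimap1, the lowest member, at the 74.5th.

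The share of each member in the summed FPKM of the 8 genes, which rests on the same lengths, was compared as a description. Gimap6 made up 30.4%, 34.7% and 35.9% in CD36+ NK and 29.4%, 25.98% and 30.2% in CD36- NK. Gimap4 made up 11.9%, 11.7% and 12.1% in CD36+ NK and 14.3%, 14.9% and 13.8% in CD36- NK. Gimap1 made up 2.90%, 3.19% and 3.41% in CD36+ NK and 2.54%, 2.68% and 2.41% in CD36- NK. These 3 genes were the members whose shares did not overlap between the groups, higher in CD36+ NK for Gimap6 and Gimap1 and lower for Gimap4. Of the 28 ratios between members, 10 did not overlap between the groups. The ratio of Gimap1 to Gimap4 counts, for example, was 0.263, 0.297 and 0.305 in CD36+ NK and 0.193, 0.195 and 0.190 in CD36- NK (log2 difference 0.58). The exact permutation test (two-sided) gave p = 0.1 for each of the 10, the smallest value that 3 against 3 libraries allow. None could pass, so the test cannot decide whether the mix of members differs. The 28 ratios are built from the same 8 genes and are not independent. The ratio of Gimap5 to Gimap8 counts was 0.307, 0.259 and 0.271 in CD36+ NK and 0.322, 0.275 and 0.266 in CD36- NK, with overlap.

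The fractions were checked against markers of NK cells and of other cells. All 12 genes of an NK lineage list passed with a lower level in CD36+ NK, 11 of them as DEGs, with a median log2 fold change of -2.35. Their summed level was 1282 to 1527 CPM in CD36+ NK and 6202 to 8024 CPM in CD36- NK, and none was at 0. Gzma, which encodes granzyme A, was at 317 ± 21.8 CPM in CD36+ NK and 1883 ± 241 CPM in CD36- NK (SD, n = 3). Il2rb, the beta chain of the IL-2 and IL-15 receptors, was at 305 ± 56.0 CPM and 1406 ± 259 CPM. The median log2 fold change of the Gimap genes lay nearer to 0, at -0.87, and the ratio of the summed CPM of the 8 Gimap genes to that of the NK list was 1.20, 1.09 and 0.993 in CD36+ NK and 0.379, 0.419 and 0.373 in CD36- NK. Of 9 genes of ILC1 and liver-resident NK cells, 3 passed with a lower level and 1 was a DEG, and the 2 most expressed, Tmem176b and Tmem176a, did not pass. Over all tested genes, 5.44% passed with a lower level and 2.98% were DEGs lower in CD36+ NK.

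Markers of other cells moved in the same comparison. Of 8 B cell genes, 6 passed with a higher level in CD36+ NK, as did 5.07% of all tested genes, and none was a DEG. With a library left out, 0 to 5 of them passed. Their summed level was 4841 to 5395 CPM in CD36+ NK and 3281 to 3677 CPM in CD36- NK, with Cd79a at 1018 ± 74.1 and 723 ± 92.9 CPM. Of 10 tested genes of macrophages and Kupffer cells, 4 were DEGs higher in CD36+ NK, as were 2.98% of all tested genes, against 8 in DESeq2, 9 in edgeR's exact test and 0 to 9 with a library left out. Their list summed to 6736 to 9368 CPM in CD36+ NK and 2472 to 5812 CPM in CD36- NK, with Lyz2 at 3962 ± 426 and 3710 ± 1451 CPM and Csf1r at 1735 ± 602 and 467 ± 258 CPM. No gene of these lists was at 0 in all libraries. Hepatocyte genes were near 0, at 0.0884 to 10.9 CPM in sum. The part of these cells in the Gimap values was not tested.

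CD36+ NK replicate 1 stood apart from the other CD36+ NK libraries in several lists. The 13 T cell genes summed to 693 CPM in it and to 172 and 168 CPM in CD36+ NK replicates 2 and 3, against 603 to 768 CPM in CD36- NK. Of the 12 that were tested, 3 passed with a lower level in CD36+ NK (Cd247, Trbc1 and Lck) and 2 with a higher level (Cd4 and Cd8a), and without CD36+ NK replicate 1 the counts were 7 and 2. With all libraries, 5.44% of all tested genes passed with a lower level and 5.07% with a higher level. Lck, a kinase of T and NK cells, was at 189, 94.9 and 84.7 CPM in CD36+ NK and at 443, 364 and 463 CPM in CD36- NK, and Trbc1, a T cell receptor constant gene also transcribed in NK cells, at 42.0, 24.1 and 14.4 CPM and at 96.8, 93.7 and 132 CPM. Cd3e, named after its values were seen, encodes a chain of CD3, the marker by which the gate excludes cells. It was at 27.0, 0.147 and 0.0831 CPM in CD36+ NK and at 0.615, 1.06 and 0.879 CPM in CD36- NK. The neutrophil list, led by S100a9 and S100a8, summed to 2466 CPM in CD36+ NK replicate 1, to 468 and 509 CPM in the other CD36+ NK libraries and to 739 to 1820 CPM in CD36- NK. The erythroid list, led by Hbb-bs and Hba-a1, summed to 796, 388 and 350 CPM in CD36+ NK and to 76.4 to 171 CPM in CD36- NK. Of its 8 genes, 5 were DEGs higher in CD36+ NK (6 in DESeq2, 0 to 5 with a library left out), as were 2.98% of all tested genes. The monocyte list, led by Plac8 and Chil3, summed to 1619, 1128 and 1156 CPM in CD36+ NK and to 1119 to 1883 CPM in CD36- NK. Its 9 genes moved both ways, with 1 DEG lower in CD36+ NK (Ccr2) and 2 higher (Cd14 and Clec4e). In DESeq2 the DEGs were 3 lower and 2 higher, and 2.98% of all tested genes were DEGs in each direction in edgeR. Without CD36+ NK replicate 1 the Gimap difference was larger, with a median log2 fold change of -1.04, 7 genes past the test (all but Gimap6) and 4 DEGs (Gimap3, Gimap4, Gimap7 and Gimap9).

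**Figure D4:**
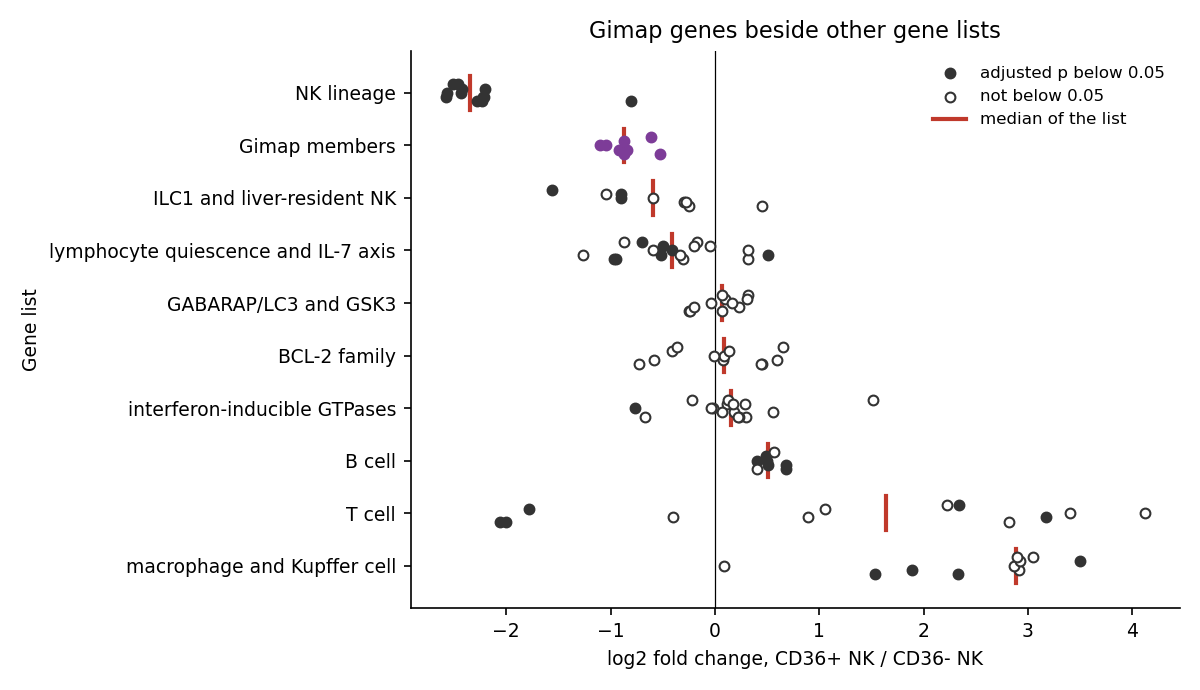
Log2 fold changes of the Gimap genes and of the other gene lists. The horizontal axis is the log2 fold change between CD36+ NK and CD36- NK, each row is a list, each point a tested gene (filled where the adjusted p was below 0.05, purple for the Gimap genes), and red lines are medians. The Gimap genes lie around a median of -0.87. Among the lists shown, the nearest medians are those of ILC1 and liver-resident NK at -0.59 and lymphocyte quiescence and IL-7 axis at -0.41. The monocyte list, which is not shown, has a nearer median of -0.70. The NK lineage list is at -2.35 and the BCL-2 family at 0.08.

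Gimap proteins have been reported to bind proteins of apoptosis and autophagy, and genes of these pathways were examined beside them. Of 14 genes of the BCL-2 family, which sets the threshold of mitochondrial apoptosis, 12 were tested and none passed, with 3 lower and 3 higher at an unadjusted p below 0.05 and a median log2 fold change of 0.08. With 12 genes, none passing is near the 5.44% and 5.07% of all tested genes that passed lower and higher. Which genes of the family passed depended on the setting. Mcl1, Pmaip1 and Bmf passed with a higher level in DESeq2, in edgeR's exact test and without CD36+ NK replicate 1. Mcl1 and Pmaip1 did so with upper-quartile scaling, and Mcl1 with the form of the library name as a block. With the replicate number as a block, Bcl2l1 passed with a lower level and Pmaip1 with a higher level. Without CD36- NK replicate 2, Bbc3 and Bcl2l11 passed with a lower level and Bmf with a higher level. None was a DEG in these fits. Hrk was at 0 in all libraries. Mcl1, the survival factor on which NK cells depend, was at 1060, 1335 and 1237 CPM in CD36+ NK and at 907, 935 and 842 CPM in CD36- NK, without overlap (log2 fold change 0.44, adjusted p = 0.0538 in edgeR's quasi-likelihood test, 0.0428 in its exact test and 0.0101 in DESeq2). Bcl2, another survival factor, was at 142, 186 and 158 CPM in CD36+ NK and at 200, 195 and 229 CPM in CD36- NK (log2 fold change -0.36, edgeR adjusted p = 0.123).

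The list of GABARAP and LC3 proteins, other autophagy factors and the GSK3 kinases held 11 genes, which include reported partners of Gimap6 and Gimap5. None passed, 2 were lower and none higher at an unadjusted p below 0.05, none passed in DESeq2 or in edgeR's exact test, and the median log2 fold change was 0.07. With 11 genes, none passing is near the 5.44% and 5.07% of all tested genes that passed lower and higher. Gabarap, a ubiquitin-like protein of autophagosomes, was at 208 ± 14.0 CPM in CD36+ NK and 194 ± 15.5 CPM in CD36- NK. Gsk3a, a serine/threonine kinase, was at 157 ± 3.41 CPM and 180 ± 16.2 CPM (log2 fold change -0.20, edgeR adjusted p = 0.246). Gabarapl2 itself, given here because it is the partner of Gimap6 and chosen after its value was seen, was at 80.7, 81.3 and 76.0 CPM in CD36+ NK and at 97.6, 89.0 and 95.03 CPM in CD36- NK (log2 fold change -0.24, edgeR adjusted p = 0.109).

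In a list of 17 genes of lymphocyte quiescence and the IL-7 axis, 6 passed with a lower level and 1 with a higher level. Among all tested genes the shares were 5.44% and 5.07%. None of the list was a DEG, and its median log2 fold change was -0.41. The 6 were Runx3, Runx1, Satb1, Fli1, Ets1 and Notch1, with log2 fold changes of -0.70, -0.50, -0.97, -0.41, -0.52 and -0.95, and the gene with a higher level was Notch2 at 0.51. Runx3, Runx1, Satb1, Fli1 and Ets1 are transcription factors of blood and lymphocyte development, Notch1 and Notch2 are receptors, and all but Ets1 were named after their values were seen. Ets1, an ETS factor needed for NK cell development, was at 611, 615 and 518 CPM in CD36+ NK and at 783, 780 and 943 CPM in CD36- NK (SE 0.121, adjusted p = 0.0387 in edgeR). Klf2, which holds lymphocytes at rest, was at 608, 738 and 628 CPM in CD36+ NK and at 816, 594 and 864 CPM in CD36- NK, with overlap (log2 fold change -0.20, edgeR adjusted p = 0.486). Of the 7 genes that passed, Runx3 alone remained without CD36+ NK replicate 2, without CD36+ NK replicate 3 and without CD36- NK replicate 1. It was also the only gene to remain when the model had the replicate number as a block. Runx3 and Notch2 remained without CD36- NK replicate 3. None of the 7 remained without replicate 1 of both groups, where Lef1, Tcf7 and Il7r passed with a lower level instead. CD36+ NK replicate 1 stood apart in some genes of the list. Tcf7, a factor of naive and resting lymphocytes named after its values were seen, was at 125 CPM in it and at 34.4 and 31.7 CPM in the other CD36+ NK libraries, against 131, 144 and 182 CPM in CD36- NK. Without that library 5 genes of the list were DEGs (Lef1, Satb1, Tcf7, Il7r and Notch1), all lower, and Runx1, Fli1 and Ets1 did not pass.

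The interferon-inducible GTPases are another family of immune GTPases and served as a comparison by protein class. Of its 16 genes, 1 passed with a lower level, Gbp4, which is near the share of 5.44% over all tested genes. Gbp4 was at 86.3, 103 and 82.6 CPM in CD36+ NK and 126, 147 and 191 CPM in CD36- NK (log2 fold change -0.77, SE 0.169, adjusted p = 0.0328 in edgeR). Gbp4 did not pass with the replicate number as a block, without any 1 of the CD36+ NK libraries or without CD36- NK replicate 3. Gbp7, named after its values were seen, did not pass in the quasi-likelihood test (adjusted p = 0.0582 in edgeR) and passed with a lower level in DESeq2 and in edgeR's exact test. The median log2 fold change was 0.15. Gbp9, the most expressed, was at 146 ± 16.1 CPM in CD36+ NK and 147 ± 23.3 CPM in CD36- NK. None was a DEG in edgeR's quasi-likelihood or exact test, and DESeq2 called Iigp1, which was higher in CD36+ NK (log2 fold change 1.51, DESeq2 adjusted p = 0.0245, and 0.126 in edgeR).

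The genes whose profile over the 6 libraries was most like the mean profile of the 8 Gimap genes were Kcnc1, Ptpn7, Hopxos, Disc1 and Gm16538, at root mean square distances of 0.055, 0.058, 0.068, 0.073 and 0.073 between centred log2(CPM + 1) values, where the median gene was at 0.502. The members themselves lay at 0.036 (Gimap5) to 0.183 (Gimap1). Ptpn7, a phosphatase of lymphocytes, was the only well-expressed gene of the 5. It was at 100, 82.7 and 62.4 CPM in CD36+ NK and 147, 139 and 164 CPM in CD36- NK (log2 fold change -0.88). Its order of libraries was that of Gimap3 within CD36+ NK, with replicate 1 highest and replicate 3 lowest. As the 5 genes were picked from all tested genes by their profile, such likenesses follow from the choice. Kcnc1, Disc1, Hopxos and Gm16538 had 8.05 CPM or less in every library, and Hopxos and Gm16538 had 1.86 CPM or less. Their log2 fold changes were -1.07, -0.99, -2.01 and -1.66 in the same order. The pseudocount of 1 shrinks differences at such low levels, so Hopxos and Gm16538 are near the Gimap profile only on that scale.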

How the data were processed

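The authors filtered reads with Seqtk, mapped them with HISAT2 2.0.4 and counted fragments per gene with StringTie. They deposited these counts without normalization, beside FPKM values. The deposited FPKM was, in 100% of 7439 genes that had over 200 counts in all libraries, the count over a length fixed per gene and the library total (relative tolerance 0.001), and it was used only for levels between genes. The submitters' processing notes name a rat assembly, while the table holds mouse genes. The broken lines of 2 genes were rejoined.

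Counts were analysed with edgeR 4.0.16 in R 4.3.3 (filterByExpr with a minimum count of 10, TMM, quasi-likelihood test without a block, Benjamini-Hochberg adjustment over 14761 genes). The biological coefficient of variation was 20.3%. DEGs needed a fold change over 2 besides an adjusted p under 0.05, as in the study. An SE is a log2 fold change, without its sign, over the root of its F statistic. Replicates differed by more than sampling noise (chi-square per degree of freedom 14.8 to 29.1). The edgeR steps were tested on simulated counts. DESeq2 1.42.0 was an alternative.

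The members, lists and tests were chosen with earlier results of these data known. The named genes are Cd36, the 8 members, every tested neighbour within 250 kb, the 2 genes of highest mean CPM and up to 3 DEGs per direction in each pathway list, the 2 of highest mean CPM in the cell type lists given, and the 5 genes of nearest profile (pseudocount 1). Other genes were named after their values were seen. 1 gene that this rule names is not reported here. Sequences came from RefSeq (GRCm38.p6), with 27025 genes in the promoter table. Shared stretches came from GENCODE M21. Of the other cell type lists, the median log2 fold change was -0.70 for monocytes, 0.37 for dendritic cells, 0.59 for neutrophils, 1.64 for T cells, 1.17 for sinusoidal endothelium, 1.84 for erythroid cells and 0.49 for platelets. Of the hepatocyte list no gene was tested and of the stellate cell list 1 (-0.03).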

Additional observations from a re-analysis of the deposited data

How the results depend on the processing

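Over 15 alternatives for each of the 8 Gimap genes, none of 120 log2 fold changes reversed, and 83 kept an adjusted p below 0.05 while 37 did not. Gimap4 passed in all 15 (highest adjusted p 0.0335) and Gimap5 in 14 (0.0512 without CD36+ NK replicate 2), while Gimap6 passed in 7. The count of Gimap DEGs, 2, was 0 to 4 with a library left out, 8 with no fold threshold and 0 above a fold of 4. The count past an adjusted p of 0.05, 8, was 1 to 7 with a library left out and 3 without replicate 1 of both groups, a setting chosen after the data were seen. Over all tested genes, the count of lower genes past that threshold was 382 to 853 with a library left out, against 803 with all libraries. With the replicate number as a block, 4 Gimap genes passed (Gimap4, Gimap5, Gimap7 and Gimap9), the adjusted p of the other 4 being 0.0546 to 0.0939. The replicate 1 libraries of the groups, whose library names share another form than the rest, deviated together (correlation across genes 0.310). Those of replicates 2 and 3 did not (0.0515 and -0.0837), so the title numbers were not taken as pairs. In CD36- NK the library names of replicates 2 and 3 carry other numbers than the titles, and the block used the title numbers. Pairs by library name were not examined, and whether the fractions shared donors was not tested. Of the pathway lists, 0 DEGs became 1 in DESeq2 and with the form of the library name as a block (Iigp1 in both), 0 to 5 with a library left out, 3 without replicate 1 of both groups and 8 with no fold threshold. These 8 became 13 in DESeq2, 12 in the exact test, 5 with no filter, 3 with the replicate number as a block, 4 without replicate 1 of both groups and 1 to 11 with a library left out. The 2 DEGs among the neighbours became 1 without replicate 1 of both groups (Gimap1os) and 0 above a fold of 4. RLE or upper-quartile scaling, other filters, DESeq2 and the exact test kept the 2 Gimap DEGs. The cause of these changes was not tested, beyond the fewer libraries in the fits that leave some out. Each Gimap gene had 399 or more counts in every library.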
